A study of Mus musculus with 6 samples.

Results

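Clock output and accessory loop genes are the genes through which the circadian clock passes its rhythm on to other genes and feeds back on itself. The rule named 10 of them by symbol: Dbp, Tef, Hlf, Nfil3, Nr1d1, Nr1d2, Bhlhe40, Bhlhe41, Rora and Ciart. Of these, 9 were found, each in 1 row among the 16229 genes listed, and Ciart was not analysed here. All 9 passed the filter on low values, as did 12981 genes in all. RNA came from hearts of male C57BL/6 mice, a common inbred strain, aged 8 to 10 weeks, with 2 libraries in each of 3 groups. The groups were untreated mice, mice given rivaroxaban (3 mg/kg for 7 days), an inhibitor of coagulation factor Xa, and mice given dabigatran (10 mg/kg for 7 days), an inhibitor of thrombin (factor IIa). Wild-type mice were used throughout, and the protocol describes the tissue of every group as infarcted heart muscle with its surroundings. The labels do not say whether untreated mice were operated on, whether the libraries of a group came from separate mice, or at what hour hearts were taken, so a p-value reflects only how far these samples vary, which may be technical.

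In the core of the clock, CLOCK (or its relative NPAS2) and BMAL1, the product of Arntl, bind E-box sequences and switch on the Per and Cry genes, whose proteins then block them. E-boxes also drive several of the accessory genes. DBP, TEF and HLF are the PAR bZIP activators, which bind D-box sequences in output genes, and NFIL3 represses through the same D-boxes. The nuclear receptors REV-ERB alpha and beta (Nr1d1 and Nr1d2) repress, and ROR alpha (Rora) activates, through shared ROR response elements, Arntl being a classic target. BHLHE40 and BHLHE41 (DEC1 and DEC2) compete for the E-boxes and repress. In the heart the clock is known to time metabolism and electrical properties.

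Since several members have shared control elements, RefSeq promoter windows (GRCm38.p6, from 250 bases before to 50 after a gene's start) were searched on both strands for clock motifs. Windows were found for 8 of the 9 measured genes, 9 windows in all, because Tef has 2 starts. The stretches shown are those of the members with the lowest p-values, Bhlhe41, Dbp and Nr1d1, and those around motifs in 3 other members for comparison. Capitals mark the motif matches. Gene starts differ between RefSeq and GENCODE, and the 3 longer stretches hold only the part of the window that lies upstream of both.
Bhlhe41, chr6:145865559-145865670, minus strand: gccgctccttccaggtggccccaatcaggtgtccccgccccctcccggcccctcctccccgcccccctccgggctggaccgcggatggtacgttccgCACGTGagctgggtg
Dbp, chr7:45704997-45705087, plus strand: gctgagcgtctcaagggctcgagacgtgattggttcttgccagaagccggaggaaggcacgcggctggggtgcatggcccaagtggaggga
Nr1d1, chr11:98775378-98775627, minus strand: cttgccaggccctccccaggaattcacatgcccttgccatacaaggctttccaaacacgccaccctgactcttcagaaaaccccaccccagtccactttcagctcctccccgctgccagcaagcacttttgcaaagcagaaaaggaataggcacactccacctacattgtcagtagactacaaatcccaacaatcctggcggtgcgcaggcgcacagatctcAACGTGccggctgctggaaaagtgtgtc
Tef, upstream start, chr15:81802534-81802563, plus strand: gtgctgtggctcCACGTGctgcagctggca
Tef, downstream start, chr15:81811264-81811293, plus strand: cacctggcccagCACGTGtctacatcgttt
Nfil3, chr13:52981034-52981063, minus strand: ggcgctcggaacTGACCTactaacacacat
Nr1d2, chr14:18239166-18239195, minus strand: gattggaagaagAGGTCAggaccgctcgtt
The E-box CACGTG began 153 bases upstream of the RefSeq start of Bhlhe41 but 15 bases upstream of the GENCODE gene. In Tef it began 127 and 138 bases upstream of the RefSeq starts, both inside the GENCODE gene, and 7.15% of all 32851 windows hold it. Nr1d1 held the variant CACGTT, on the reverse strand, 28 bases upstream of the RefSeq start and 72 upstream of the GENCODE gene (4.68% of windows). The ROR core AGGTCA began 77 bases upstream of the RefSeq start of Nr1d2, or 56 upstream of the GENCODE gene (16.3% of windows). In Nfil3 it lay reversed, 12 bases upstream of the RefSeq start and inside the GENCODE gene. No measured member's window held the D-box TTANGTAA (2.32% of windows) or the palindromic glucocorticoid response element (0.475%). The cyclic AMP response element TGACGTCA began 9 bases upstream of the RefSeq start of Hlf and 31 upstream of the GENCODE gene (1.79%). The 300-base Dbp window held none of these motifs, and 91 bases of it are printed. Matches describe the letters only; Bhlhe41, whose level changed, and Tef, whose level did not pass the test, both carry the same E-box.

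Per length of exon, Dbp and Nr1d1 had the highest levels in untreated hearts, at 6.46 ± 0.050 and 6.40 ± 0.010 log2 CPM per kb (SD, n = 2 each). CPM is the read count of a gene scaled to the library's total. Nr1d2 (4.65 ± 0.031), Tef (4.65 ± 0.19) and Bhlhe40 (4.54 ± 0.056) formed a middle group, in which the untreated Tef libraries, at 4.51 and 4.78, overlapped those of both neighbours. Bhlhe41 followed at 3.85 ± 0.044 and Hlf at 3.04 ± 0.16 log2 CPM per kb. Rora (2.55 ± 0.052) and Nfil3 (2.44 ± 0.013) were lowest, and the dabigatran libraries of the pair overlapped (2.46 to 2.69 and 2.54 to 2.59). Length here is that of all annotated exons of a gene merged, 13071 bases for Rora, and the place of a gene depends on it. Before division by length, Rora was above Hlf in untreated hearts (6.26 against 5.78 log2 CPM). Dbp and Nr1d1 were close, at 6.42 and 6.49 against 6.41 and 6.39 log2 CPM per kb in the untreated libraries, and their order turned with rivaroxaban (6.07 for Dbp and 6.40 for Nr1d1). The read counts behind these levels ran from 263 to 510 per library for Nfil3 and from 5240 to 9888 for Nr1d1. Over all listed genes a library had 27176892 to 43798222 reads, without molecular identifiers.

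**Figure D1:**
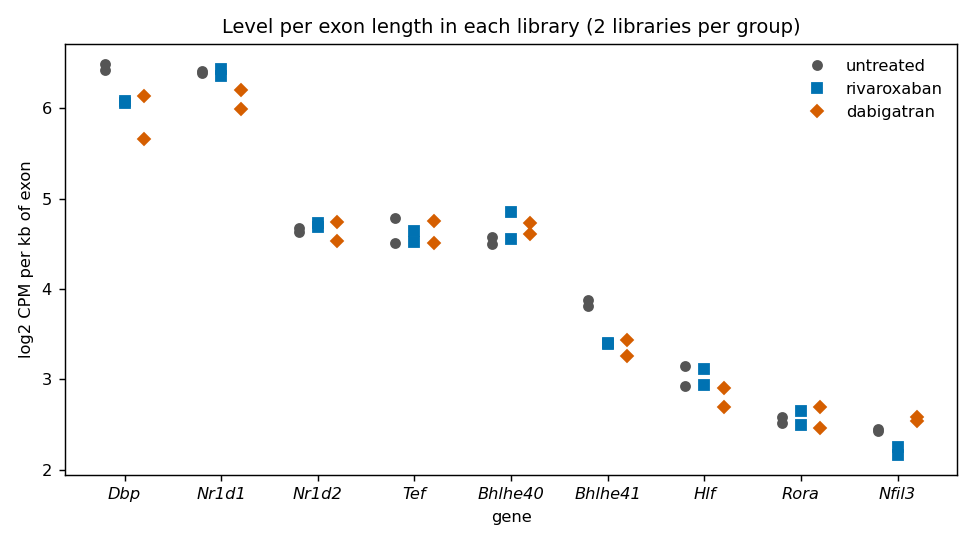
Level of each gene in log2 CPM per kb of exon (y axis) for the 9 measured genes (x axis); each point is a library, with 2 untreated, 2 rivaroxaban and 2 dabigatran libraries. Dbp and Nr1d1 lie highest and Rora and Nfil3 lowest, and both drug groups lie below the untreated libraries for Dbp and Bhlhe41.

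Bhlhe41 mRNA fell in hearts of both drug groups, to 0.733 of the untreated level with rivaroxaban and 0.708 with dabigatran (n = 2 each). Dbp mRNA fell with dabigatran, to 0.678, a call lost in 8 of 14 alternatives, quantile normalisation among them. It was lower in both rivaroxaban libraries too, where it did not pass the test. The groups share 1 estimate of spread, and for Dbp the dabigatran pair varied most (SD 0.34, against 0.050 untreated and 0.013 rivaroxaban). With only the 2 groups compared in limma, the rivaroxaban fall passed (adjusted p = 0.00245) and the dabigatran fall did not (0.0573). These calls do not show that the drugs differ for Dbp (rivaroxaban against dabigatran 0.17, adjusted p = 0.744 in limma). Nr1d1 was lower in the dabigatran libraries alone and narrowly missed the threshold there, and Nfil3 lay on opposite sides of the untreated level in the 2 drug groups without passing. Tef, Nr1d2, Bhlhe40 and Rora passed in no comparison, and neither did Hlf. Differences are in log2 CPM throughout, with the adjusted p from limma over all 12981 genes and a threshold of 0.05.

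**Figure D2:**
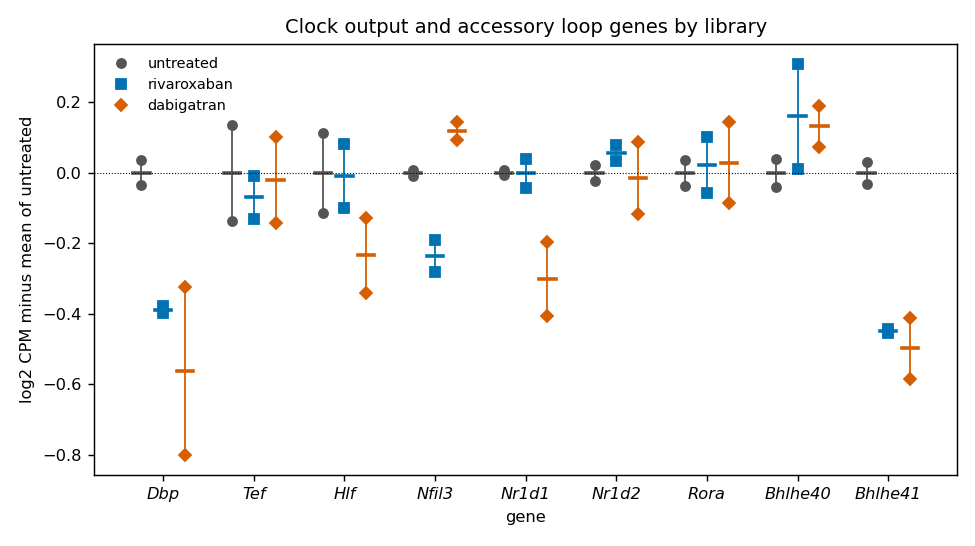
Log2 CPM of each library minus the mean of the untreated libraries (y axis) for the 9 genes (x axis); points are libraries, short bars are group means and thin lines join the 2 libraries of a group. All 4 treated libraries lie below the untreated ones for Dbp and Bhlhe41, and the dabigatran libraries spread widely for Dbp (0.48 apart).

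Bhlhe41 encodes DEC2, a repressor that competes with CLOCK and BMAL1 for E-boxes. Its level was 6.56 and 6.63 log2 CPM in untreated libraries (replicates 8 and 9, in this order throughout), 6.15 and 6.14 with rivaroxaban (14 and 15), and 6.18 and 6.01 with dabigatran (10 and 12). Every treated library was below both untreated ones, and the drug groups overlapped each other. The difference from untreated was -0.45 with rivaroxaban (SE 0.067, 95% interval -0.60 to -0.30, adjusted p = 0.00595). With dabigatran it was -0.50 (SE 0.067, interval -0.65 to -0.35, adjusted p = 0.00555). In the order of p-values Bhlhe41 stood at place 80 with rivaroxaban and place 34 with dabigatran. The rivaroxaban call was lost without rivaroxaban replicate 15 (log2 -0.44, adjusted p = 0.0817) and without limma's mean-variance trend (adjusted p = 0.124), and the dabigatran call only without the trend (adjusted p = 0.153) among the 14 alternatives run. Markers of mesothelium, the heart's outer cell layer (Msln, Upk3b, Krt19 and Lrrn4), were also lower. Of these, 4 of 4 passed with rivaroxaban and 2 of 4 with dabigatran. All 4 were lower in both dabigatran libraries than in either untreated one (20.8% of all genes). The median log2 difference of the markers was -1.11 with rivaroxaban and -0.75 with dabigatran. Dbp, described below, was at -0.39 and -0.56. Neither Bhlhe41 nor Dbp passed between the drugs (adjusted p = 0.894 and 0.744 in limma). The 4 markers summed to 59.2 to 63.1 CPM in untreated, 25.5 to 33.1 in rivaroxaban and 34.3 to 37.8 in dabigatran libraries. Their part in the results was not tested. In whole tissue, fewer cells of a type and less RNA per cell cannot be told apart.

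Its paralog Bhlhe40, which encodes DEC1, had no fall that passed. Untreated libraries stood at 6.73 and 6.81 log2 CPM, rivaroxaban at 7.08 and 6.78, and dabigatran at 6.96 and 6.85. Both dabigatran libraries were above both untreated ones, while rivaroxaban replicate 15 lay between the untreated pair. The differences were 0.16 (interval -0.031 to 0.35, adjusted p = 0.379) with rivaroxaban and 0.13 (interval -0.060 to 0.32, adjusted p = 0.531) with dabigatran. These intervals exclude a fall of the size seen for Bhlhe41. Whether the 2 paralogs differ in response was not tested in a model of its own.

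Dbp, the PAR bZIP activator whose mRNA is strongly rhythmic in many tissues, stood at 8.00 and 8.07 log2 CPM in untreated hearts. It was 7.64 and 7.66 with rivaroxaban and 7.72 and 7.24 with dabigatran. All 4 treated libraries lay below both untreated ones, and dabigatran replicate 12 was far below the other 3. The dabigatran difference was -0.56 (SE 0.11, interval -0.81 to -0.31, adjusted p = 0.0370). With rivaroxaban it was -0.39 (SE 0.11, interval -0.64 to -0.13, adjusted p = 0.113), or 0.764 of the untreated level. The dabigatran call held in 6 of 14 alternatives, with log2 differences from -0.80 without replicate 10 to -0.32 without replicate 12. It was lost without untreated replicate 8 or 9 (adjusted p = 0.136 and 0.133), without rivaroxaban replicate 14 or 15 (0.0583 and 0.0591), with the 2 groups fitted alone (0.0573), under quantile normalisation (0.0547), with robust moderation (0.239) and without the trend (0.254). The rivaroxaban difference passed without dabigatran replicate 10 or 12 (adjusted p = 0.00249 and 0.00235) and with the 2 groups fitted alone (0.00245), at the same log2 difference of -0.39.

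The other PAR bZIP activators did not pass in any comparison. Tef was 7.49 and 7.76 log2 CPM in untreated, 7.49 and 7.62 in rivaroxaban and 7.73 and 7.48 in dabigatran libraries, and the 3 groups overlapped. Its differences from untreated were -0.069 (interval -0.28 to 0.14, adjusted p = 0.753) and -0.020 (interval -0.23 to 0.19, adjusted p = 0.952), and both turned positive with a library left out. Hlf, first known from a leukaemia fusion, was 5.66 and 5.89 in untreated, 5.68 and 5.86 in rivaroxaban and 5.65 and 5.44 in dabigatran libraries. Both dabigatran libraries were below the untreated ones, replicate 10 only by a small margin. The dabigatran difference of -0.23 did not pass (interval -0.45 to -0.020, adjusted p = 0.294), and the rivaroxaban difference was -0.0086 (adjusted p = 0.975).

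Nfil3, the D-box repressor that opposes these activators, is also known from interleukin-3 signalling and lymphocyte development. It was 3.47 and 3.45 log2 CPM in untreated, 3.27 and 3.18 in rivaroxaban and 3.60 and 3.55 in dabigatran libraries. The 3 groups did not overlap: rivaroxaban was lowest and dabigatran highest. Against untreated the differences were -0.24 (interval -0.45 to -0.019, adjusted p = 0.253) and 0.12 (interval -0.097 to 0.33, adjusted p = 0.627), neither passing. Rivaroxaban was lower than dabigatran by a log2 of -0.35 (SE 0.098, interval -0.57 to -0.14), with an unadjusted p of 0.00421 in limma and an adjusted p of 0.321.

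Nr1d1 encodes REV-ERB alpha, the heme-binding repressor of Arntl. It was 8.03 and 8.01 log2 CPM in untreated, 8.06 and 7.98 in rivaroxaban and 7.61 and 7.82 in dabigatran libraries. Rivaroxaban libraries spanned the untreated pair, and both dabigatran libraries were below all others. The dabigatran difference was -0.30 (SE 0.068, interval -0.45 to -0.15, adjusted p = 0.0527), just short of the threshold, and it passed in 4 of 14 alternatives. It ranged from -0.20 without dabigatran replicate 10 to -0.41 without replicate 12 (adjusted p = 0.259 and 0.00812). With rivaroxaban it was -0.0016 (interval -0.15 to 0.15, adjusted p = 0.992), and its sign changed under quantile normalisation. Between the drugs Nr1d1 was 0.30 higher with rivaroxaban (interval 0.15 to 0.45, unadjusted p = 0.00110 and adjusted p = 0.223 in limma), and only without dabigatran replicate 12 did this pass (log2 0.41, adjusted p = 0.0485).

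Nr1d2, encoding REV-ERB beta, and Rora, encoding the activator that competes with both, likewise stayed above the threshold. Nr1d2 lay between 7.06 and 7.11 log2 CPM in untreated, 7.12 and 7.17 in rivaroxaban and 6.97 and 7.17 in dabigatran libraries. Its differences of 0.057 (interval -0.092 to 0.21) and -0.015 (interval -0.16 to 0.13) did not pass (adjusted p = 0.703 and 0.948). Rora was 6.29 and 6.22 in untreated, 6.20 and 6.36 in rivaroxaban and 6.40 and 6.17 in dabigatran libraries, so the groups overlapped throughout. Differences for Rora were 0.023 (interval -0.16 to 0.21, adjusted p = 0.916) and 0.029 (interval -0.15 to 0.21, adjusted p = 0.909). With dabigatran the REV-ERB paralogs were at -0.30 (Nr1d1) and -0.015 (Nr1d2), neither passing. Their intervals overlapped slightly, and the difference between them was not tested.

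**Figure D3:**
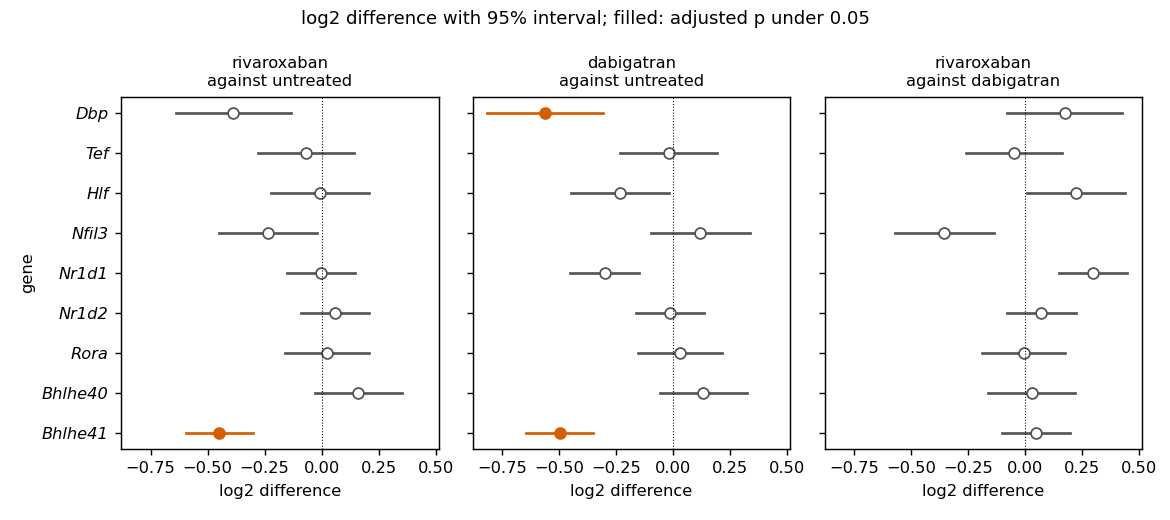
Log2 difference (x axis) with its 95% interval for the 9 genes (y axis) in the 3 comparisons; filled orange points passed an adjusted p of 0.05 in limma. Bhlhe41 passed with both drugs, Dbp with dabigatran (-0.56), and none between the drugs, where the intervals of Hlf, Nfil3 and Nr1d1 exclude 0 before adjustment.

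Counted together, 1 of 9 members fell and none rose with rivaroxaban, where 2.46% of all tested genes were called, 1.47% as higher and 0.986% as lower. With dabigatran 2 of 9 fell and none rose, against 1.88% of all genes called, 1.38% as higher and 0.501% as lower. At an unadjusted p under 0.05 in limma the members numbered 3 and 4 of 9, against 17.2% and 14.7% of all genes. The median difference of the 9 was -0.0086 with rivaroxaban and -0.020 with dabigatran, beside medians of 0.0050 and 0.0026 over all tested genes. Libraries of the 2 groups did not overlap for 4 of 9 members with rivaroxaban (50.6% of all genes). Of these 1 was higher (26.1%) and 3 were lower (24.5%). With dabigatran 6 of 9 did not overlap (43.6%), 2 of them higher (22.8%) and 4 lower (20.8%). Both comparisons use the same 2 untreated libraries, and the members were chosen with earlier results of these data known. The shares of all genes are therefore background only, and the members were not tested as a set. Between the drugs, which were given at different doses, 0 of 9 passed in limma and 3 of 9 had an unadjusted p under 0.05, against 0.077% and 8.43% of all genes. Drug groups did not overlap for 3 of 9 members (39.7%), with 2 higher (19.3%) and 1 lower (20.4%) in the rivaroxaban libraries. The intervals for Bhlhe41 (-0.099 to 0.20) and Dbp (-0.079 to 0.43) give the range of drug differences these 4 libraries allow.

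Of the core clock genes, 7 of 8 were tested, and Per3 was not analysed here. Per1, the period gene that glucocorticoids and cyclic AMP also induce, rose with both drugs and was the only one called. It was 6.13 and 6.41 log2 CPM in untreated, 6.98 and 7.14 in rivaroxaban and 7.29 and 6.97 in dabigatran libraries, a difference of 0.79 (adjusted p = 0.00372) and 0.86 (adjusted p = 0.00409). Per2, its partner, had differences of 0.49 and 0.35 that did not pass (adjusted p = 0.226 and 0.428). Cry2, a blocker of CLOCK and BMAL1, was at -0.26 with dabigatran without passing (adjusted p = 0.149), and Cry1 was at -0.096 with rivaroxaban and 0.014 with dabigatran. Clock itself was at 0.0051 and 0.023. Arntl and Npas2, which REV-ERB represses, had differences of 0.32 and 0.20 with rivaroxaban and 0.25 and 0.13 with dabigatran, none passing (lowest adjusted p = 0.526). The median of the 7 was 0.20 with rivaroxaban and 0.13 with dabigatran.

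**Figure D4:**
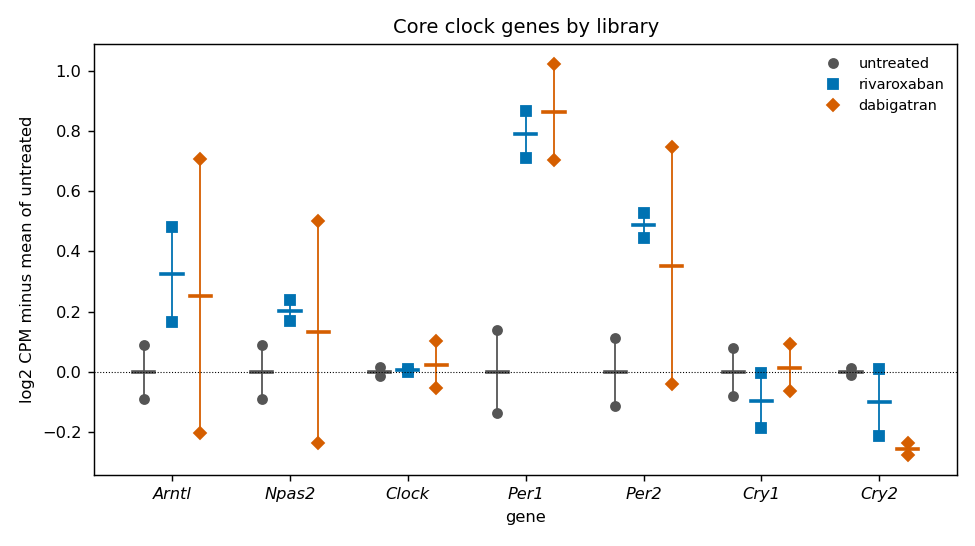
Log2 CPM of each library minus the untreated mean (y axis) for 7 core clock genes (x axis), with points, bars and lines as in the plot for the output genes. Per1 is higher in all 4 treated libraries, and the 2 dabigatran libraries lie on opposite sides of the untreated mean for Arntl, Npas2 and Per2.

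By the median gap of the members, the dabigatran libraries differed from each other more than the other pairs did. Replicate 12 was lower than replicate 10 for 8 of 9 members, all but Nr1d1, whereas 49.7% of all tested genes were lower in it. The median absolute gap of the members was 0.21 in this pair, against 0.071 in the untreated and 0.091 in the rivaroxaban pair; over all tested genes it was 0.097, 0.098 and 0.083. Dbp was 0.48 lower in replicate 12 than in replicate 10, a gap that 4.18% of tested genes matched or passed. Per2 was 4.45 in replicate 12 and 5.23 log2 CPM in replicate 10 (0.793% of genes had as large a gap). Arntl went the other way, at 3.13 in replicate 12 and 2.22 in replicate 10 (0.408%), as did Npas2, at 2.53 and 1.79 (0.994%). Arntl and Npas2 are genes that normally peak opposite to Dbp and Per2 over the day. Nr1d1, which represses Arntl, was also higher in replicate 12, by 0.21. The hour of harvest is not in the labels, and clock phase was not tested. Tef, Hlf, Nfil3, Bhlhe40, Cry1 and Cry2 had their widest gap in another pair (Hlf 0.23 in untreated, against 0.21 with dabigatran). Dabigatran values for Dbp and Nr1d1 rest on the pair with the widest gap for these genes, though 20.4% of tested genes had as large a gap as Nr1d1 (0.21). The part of this spread in the results was not tested beyond leaving each library out.

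Among the genes that act on clock proteins, none passed in any comparison. Of the clock kinases and ubiquitin ligases 7 of 8 were tested, with medians of 0.056 with rivaroxaban and -0.0032 with dabigatran. The 7 REV-ERB corepressors and other ROR family members had medians of 0.056 and 0.11, with the corepressor Ncor1 at 0.13 (adjusted p = 0.285) and 0.14 (adjusted p = 0.315). Of 12 genes rhythmic in most organs or in heart, 10 were tested, and medians were 0.13 and 0.15. Tsc22d3, the glucocorticoid-induced leucine zipper gene, rose with both drugs (log2 0.92, adjusted p = 0.00117, and log2 0.79, adjusted p = 0.00495). Alas1, the first enzyme of heme synthesis, fell with dabigatran (log2 -0.34, adjusted p = 0.0450) and was at -0.24 with rivaroxaban (adjusted p = 0.134). Pdk4, a kinase that curbs glucose oxidation, was at 1.66 and 1.83 without passing (adjusted p = 0.113 and 0.0993), from 6.47 to 7.82 log2 CPM in untreated to 8.03 to 9.59 in treated libraries. Between the drugs none of these 4 lists had a called gene.

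Markers of the other cell types were also read. The 5 cardiomyocyte markers measured summed to between 68969 and 73427 CPM, and none was called, nor was any of 4 endothelial, 4 fibroblast or 4 macrophage markers against untreated. The neutrophil markers S100a8, S100a9 and Retnlg lay below the filter in these hearts (0.597 to 1.27 CPM summed). Myh11, a smooth muscle gene, fell with rivaroxaban (log2 -0.34, adjusted p = 0.0416), and its list of 4 summed to 1164.5 to 1178 CPM in untreated and 1174.2 to 1219.4 in treated libraries. Most of that sum was Rgs5 (mean 792 CPM in untreated, against 74.5 for Myh11), so it says little about smooth muscle alone. Slc4a1, the only red cell marker analysed here, rose with dabigatran (log2 2.12, adjusted p = 0.0487). With rivaroxaban it was at 1.67 without passing (adjusted p = 0.0982), and between the drugs it did not pass (adjusted p = 0.85 in limma). Its level was 0.216 to 0.807 CPM in untreated, 1.23 to 1.81 in rivaroxaban and 1.70 to 2.54 in dabigatran libraries. These values rest on 7 to 74 reads per library, with 23 and 7 in the untreated pair.

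Several members share transcribed sequence with a gene on the opposite strand, and whether reads were counted by strand is not given in the sources used here, although the library kit was directional. On GRCm38, the assembly that mm10 stands for, Dbp (ENSMUSG00000059824, chromosome 7, 45705088 to 45710203) shares 539 exon bases with Sphk2. Sphk2, a sphingosine kinase gene, was at 0.25 with rivaroxaban (adjusted p = 0.182) and 0.12 with dabigatran (adjusted p = 0.573), opposite in sign to Dbp. Nr1d1 (ENSMUSG00000020889, chromosome 11, 98767932 to 98775333) shares 263 exon bases with Thra, the thyroid hormone receptor alpha gene. Thra was lower in both dabigatran libraries, like Nr1d1, at -0.18 (adjusted p = 0.220), and at -0.056 with rivaroxaban. Bhlhe41 (ENSMUSG00000030256, chromosome 6, 145858243 to 145865558) shares 1280 bases with the unclassified transcript Gm43909, which was not analysed here. Tef and Bhlhe40 overlap antisense RNAs (193 and 118 shared bases) with 2 to 12 and 53 to 109 reads per library. All 9 members are annotated as protein-coding.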

How the data were processed

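Poly-A RNA of 6 mouse heart samples was sequenced with a directional kit, per the labels' protocols. Tools named in the submitters' processing notes are STAR, edgeR, Trim Galore, FastQC and bcl2fastq, on build mm10. The read counter is not given in the sources used here, nor are the gene models. The table deposited by the authors holds log2 CPM, TMM-scaled per its title, with a floor of -4.04 in every library, so differences of low genes are understated. After the floor was subtracted, 100% of low values in each library were whole multiples of 1 read (tolerance 0.02 reads), which gave the read counts. limma 3.58.1 (R 4.3.3) was run on the 12981 genes whose log2 CPM averaged at least 0 (eBayes with a trend over mean level; 3 group means, 6 libraries, 3 residual and 7.75 prior degrees of freedom). Tests were two-sided with Benjamini-Hochberg adjustment within each comparison. The fit was also run on data simulated from its own estimate of spread, which cannot test the mean-variance trend. Exon lengths came from GENCODE M21 and promoters from RefSeq. Of 92 list entries 78 matched, by symbol; up to 4 genes with the lowest p were named per list, and all core clock genes could be. Some genes that met this rule are not reported here. The members and lists were chosen with earlier results of these data known. The alternatives were another moderation (no trend, robust), filter, scaling, added constant or set of libraries.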

Additional observations from a re-analysis of the deposited data

How the results depend on the processing

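With 2 libraries per group, calls depended on how limma shares the spread. Without the mean-variance trend 0 members and 0 genes passed in each comparison (1938, 1728 and 984 genes at an unadjusted p under 0.05 for rivaroxaban and dabigatran against untreated and rivaroxaban against dabigatran; 2, 3 and 2 members). Members called with rivaroxaban were 2 when only the 2 groups compared were fitted and 0 to 2 with 1 library left out (0 without rivaroxaban 15, 2 without dabigatran 10 or 12). With dabigatran they were 1 with only the 2 groups, 1 under quantile normalisation and 1 to 3 with 1 library left out (1 without untreated 8 or 9 or rivaroxaban 14 or 15, 3 without dabigatran 12). Between the drugs they were 0 to 1 with 1 library left out (1 without dabigatran 12). Genes called with rivaroxaban, 319 as reported, were 61 to 410 with 1 library left out (134 and 212 without untreated replicates 8 and 9, 173 and 61 without rivaroxaban 14 and 15). With dabigatran 244 genes became 154 under quantile normalisation and 73 to 270 with 1 left out (73 and 150 without untreated 8 and 9, 98 without dabigatran 10). Between the drugs 10 genes became 6 with only the 2 groups, 1 under quantile normalisation and 0 to 20 with 1 left out (6 without either untreated library, 0 without rivaroxaban 14 or 15 or dabigatran 10, and 20 without dabigatran 12). Small differences that never passed changed sign. Under quantile normalisation Nr1d1 was at 0.021 with rivaroxaban and Rora at 0.0028 between the drugs. With 1 library left out, ranges with rivaroxaban were -0.043 to 0.040 (Nr1d1), -0.20 to 0.067 (Tef), -0.12 to 0.10 (Hlf) and -0.056 to 0.10 (Rora). With dabigatran they were -0.16 to 0.12 (Tef), -0.12 to 0.087 (Nr1d2) and -0.087 to 0.15 (Rora). Between the drugs they were -0.17 to 0.074 (Tef), -0.12 to 0.18 (Bhlhe40), -0.12 to 0.11 (Rora), -0.065 to 0.41 (Dbp), -0.030 to 0.17 (Nr1d2) and -0.037 to 0.13 (Bhlhe41). A group left with 1 library was assumed to vary like the others. The cause of these changes was not tested. No paired analysis was possible because the groups share no replicate number.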
